A study of Mus musculus with 4 samples.

Results

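The elastic fibre genes were followed through 4 RNA-Seq libraries of male mouse urogenital sinus (UGS), the embryonic tissue from which the prostate develops. The set was 10 genes listed by symbol, *Eln*, *Fbn1*, *Fbn2*, *Fbln1*, *Fbln2*, *Fbln5*, *Efemp2*, *Lox*, *Loxl1* and *Mfap5*, and each matched 1 of the 25819 rows of the deposited table. The libraries were wild type at E16.5, *Tbx18* GFP/GFP at E16.5, wild type at E18.5 and *Tbx18* GFP/GFP at E18.5, and each was made from whole UGS of 3 embryos whose RNA was pooled. The mutants were homozygous for a null allele with GFP inserted at the *Tbx18* locus in every tissue, the controls were wild type littermates, and the mice of the study were bred on a B6C3-F1 hybrid background. With 1 library for each genotype and stage there was no replicate error within a group, and no test between groups was made. The intervals given below are 95% intervals that cover the counting of reads and nothing else.

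Elastic fibres let a tissue stretch and recoil. Cells secrete tropoelastin, which is placed on a scaffold of fibrillin microfibrils with the help of fibulins and is then joined into an insoluble polymer by copper-dependent lysyl oxidases. Arteries, lung and skin are rich in these fibres, and smooth muscle cells, fibroblasts and endothelial cells are known sources of them.

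The values were FPKM (fragments per kilobase of transcript, also divided by library depth), so levels of different genes within a library could be compared. The depth, estimated from FPKM of single reads, was lowest in the E18.5 wild type library at 29000000 mapped reads and between 52400000 and 64000000 in the other 3. All 10 genes were at 9.24 FPKM or more in every library, and the estimated reads behind a value ranged from 1240 to 54329. *Tbx18* itself had 3.47 FPKM in wild type and 2.50 in mutant UGS at E16.5, and 3.16 and 2.93 at E18.5. The table gives 1 value for the whole gene, so this does not check the genotype labels. The E18.5 wild type library stood apart. The median gene with at least 1 FPKM in both libraries had a log2 ratio of mutant to wild type of 0.29 at E18.5 and 0.01 at E16.5, and between the stages of -0.33 in wild type and -0.06 in mutant UGS. At E18.5 this median also moved with the GC content of transcripts, from -0.06 in the lowest to 0.82 in the highest of 10 bins. For the 10 genes each E18.5 log2 ratio is therefore given as deposited, then centred (the median of all genes subtracted), then detrended (a curve fitted over all genes on length and on GC subtracted). Of the tissue's defining markers, *Hoxd13*, *Hoxa13*, *Shh*, *Foxa1*, *Upk1a* and *Upk3a* each exceeded 1 FPKM in every library.

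The 250 bases before the transcript start are shown for 3 fibulin genes, since *Fbln5* and *Efemp2* were the fibulins with the largest E18.5 ratios and *Fbln1* had the smallest. They are RefSeq sequences of GRCm38.p6, 5′ to 3′ on the strand of the gene, and capitals mark the core of the site that T-box factors are known to bind, GGTGTGA, searched on both strands. *Fbln5* lies on the minus strand at chr12:101819120-101819369, *Efemp2* on the plus strand at chr19:5473696-5473945 and *Fbln1* on the plus strand at chr15:85205699-85205948, and no annotated exon overlaps these windows. Each gene also had a window at another listed start, and annotated exons overlap all of those, so they are not shown.

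Fbln5: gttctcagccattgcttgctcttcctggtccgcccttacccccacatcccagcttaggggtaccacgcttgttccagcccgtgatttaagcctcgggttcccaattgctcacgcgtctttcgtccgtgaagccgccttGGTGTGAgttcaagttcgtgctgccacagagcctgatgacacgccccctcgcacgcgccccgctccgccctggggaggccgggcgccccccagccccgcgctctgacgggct
Efemp2: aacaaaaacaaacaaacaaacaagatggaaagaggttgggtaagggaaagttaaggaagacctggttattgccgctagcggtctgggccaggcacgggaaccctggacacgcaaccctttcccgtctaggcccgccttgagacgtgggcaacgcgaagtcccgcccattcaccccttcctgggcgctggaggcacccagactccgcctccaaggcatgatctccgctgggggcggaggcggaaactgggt
Fbln1: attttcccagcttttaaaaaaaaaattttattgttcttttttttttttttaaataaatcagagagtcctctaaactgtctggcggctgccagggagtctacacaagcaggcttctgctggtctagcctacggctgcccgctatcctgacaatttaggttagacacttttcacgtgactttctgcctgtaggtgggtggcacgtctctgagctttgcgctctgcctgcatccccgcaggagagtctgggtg

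The *Fbln5* window shown held the core once, starting 112 bases before its transcript start. The windows of *Efemp2* and *Fbln1* did not hold these letters, nor did the other windows listed for *Fbn1*, *Fbln1*, *Fbln2*, *Fbln5* and *Efemp2*, the 5 of 10 genes with an entry. The core was in 3.33% of the 32851 windows of all genes, and a match of this kind is a description of the sequence, not a bound site. GC content was 65.2% in the *Fbln5* window shown, 59.2% in that of *Efemp2* and 46.4% in that of *Fbln1*, against a median of 52.4% over all windows. The order depended on the start taken. GC content was 49.6% in the other *Fbln5* window, 75.6% and 78.8% in the other *Efemp2* windows and 62.4% in the other *Fbln1* window. *Eln*, *Fbn2*, *Lox*, *Loxl1* and *Mfap5* had no entry.

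*Eln* had the highest FPKM of the 10 genes in every library. It encodes tropoelastin, the monomer of the elastic polymer, and lies on chromosome 5 from 135178466 to 135223124 in the positions of the deposited table, whose genome build is not given in the sources used here and which differ from those of GRCm38. At E16.5 the wild type library held *Eln* at 159 FPKM and the *Tbx18* GFP/GFP library at 229.5 FPKM, and at E18.5 these levels were 149 and 285 FPKM. Both mutant libraries were above both wild type libraries. The mutant to wild type ratio was 1.44 at E16.5 (counting interval 1.42 to 1.46) and 1.92 at E18.5 (1.88 to 1.95). The log2 ratio at E16.5 was 0.53 as deposited, 0.51 centred and 0.52 detrended. At E18.5 it was 0.94 as deposited, 0.65 centred and 0.25 detrended. In bulk tissue a change in the number of cells that make a transcript cannot be told apart from a change in RNA per cell.

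**Figure D1:**
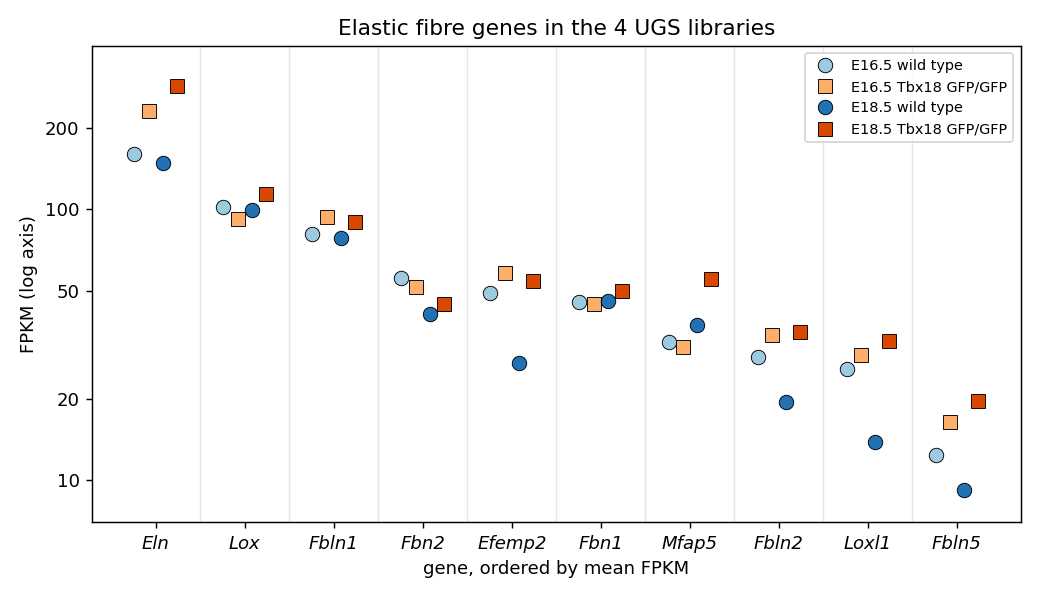
FPKM on a log axis of the 10 elastic fibre genes in the 4 libraries, with 1 point per pooled library and no replicates. *Eln* is highest throughout, with the mutant squares at 229.5 and 285 above the wild type circles at 159 and 149, while the E18.5 wild type library is the lowest point for 7 of the 10 genes. The median of all genes was lower in that library too, with log2 ratios of -0.33 for wild type E18.5 over E16.5 and 0.29 for mutant over wild type at E18.5. Of all genes 27.7% were higher at E18.5 than at E16.5 in wild type, and 69.5% were higher in the mutant at E18.5. The share of all genes lowest in the E18.5 wild type library is not given here.

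The order of levels was similar in the 4 libraries. *Eln*, *Lox* and *Fbln1* were the top 3 in each and *Fbln5* was the lowest. In E16.5 wild type UGS *Fbn2*, *Efemp2*, *Fbn1*, *Mfap5*, *Fbln2* and *Loxl1* followed the top 3 in that order. Counting intervals of neighbours in the order overlapped for *Fbln1* and *Lox* and for *Mfap5* and *Loxl1* in the E16.5 mutant, and for *Mfap5* and *Efemp2* in the E18.5 mutant. *Efemp2* was the fifth in E16.5 and the seventh in E18.5 wild type UGS.

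*Eln* stood out from the other members at E16.5 more than at E18.5. At E16.5 its ratio exceeded that of 98.2% of the 14761 genes that reached 1 FPKM in one of the libraries, and at E18.5 that of 82.7% of 14733 genes. The share of the summed FPKM of the 10 genes that came from *Eln* was 26.9% in wild type and 33.7% in mutant UGS at E16.5, and 28.5% and 36.5% at E18.5. This share compares genes within a library and so does not depend on scaling between libraries, although it can still move with GC content. The *Eln* transcript has 58.8% GC and falls in the highest of the 10 bins, where the median log2 ratio of all genes was 0.02 at the earlier and 0.82 at the later stage.

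The fibrillins, which polymerise into the microfibrils on which tropoelastin is laid down, differed little between genotypes. *Fbn1* (chromosome 2, 125126330 to 125332174) had 45.5 FPKM in wild type and 44.5 in mutant UGS at E16.5, and 45.8 and 49.9 at E18.5. *Fbn2* (chromosome 18, 58168277 to 58369580), known for its expression in embryonic tissue, had 55.8 and 51.7 FPKM at the earlier stage and 41.2 and 44.9 FPKM at the later. *Fbn1* thus varied by a factor of 1.12 over the 4 libraries, the least of the 10 genes, and *Fbn2* by 1.35. The E16.5 ratio was 0.98 for *Fbn1* (0.96 to 0.99) and 0.93 for *Fbn2* (0.91 to 0.94). At E18.5 both ratios were 1.09, with intervals of 1.07 to 1.11. Centred, the E18.5 log2 ratio was -0.17 for each gene, so that both were lower in the mutant on that scale, and detrended it was 0.05 for *Fbn1* and 0.01 for *Fbn2*. An uncharacterised row, LOC100502873, overlaps the *Fbn1* locus between 125330634 and 125332174 with 3.26 to 4.44 FPKM, and reads of these could have been shared.

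The balance of the fibrillins shifted with stage. *Fbn2* was above *Fbn1* at E16.5 in both genotypes and below it at E18.5 in both. The ratio of *Fbn1* to *Fbn2* within a library was 0.817 in wild type (0.805 to 0.829) and 0.861 in mutant UGS (0.848 to 0.875) at E16.5. At E18.5 it was 1.11 in wild type (1.09 to 1.14) and 1.11 in the mutant (1.09 to 1.13). The transcripts have nearly the same GC content, 52.3% and 52.6%, and fall in the same bin.

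*Mfap5* (chromosome 6, 122463694 to 122479308) encodes a small glycoprotein that binds fibrillin. It had 32.5 FPKM in wild type and 30.9 in mutant UGS at E16.5, and 37.4 and 55.3 at E18.5. The E18.5 mutant library was the highest and the other 3 lay within a narrower range. The ratio was 0.95 at E16.5, with an interval of 0.90 to 1.01 that holds 1, and 1.48 at E18.5 (1.39 to 1.57). The log2 ratio at E18.5 was 0.56 as deposited, 0.27 centred and 0.23 detrended. The ratio of *Mfap5* to *Fbn1* within a library was 0.71, 0.69, 0.82 and 1.11 in the order above.

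The fibulins fell into different patterns. *Fbln5* and *Efemp2* (fibulin-4) are required for elastic fibre assembly, and fibulin-4 also binds lysyl oxidase, while *Fbln1* and *Fbln2* are found in elastic fibres and in basement membranes. *Fbln5* (chromosome 12, 102984775 to 103057265) was the least abundant of the 10, with 12.4 FPKM in wild type and 16.4 in mutant UGS at E16.5, and 9.24 and 19.7 at E18.5. Both mutant libraries were above both wild type libraries, as for *Eln*, *Fbln1*, *Fbln2*, *Efemp2* and *Loxl1*. The ratio was 1.32 at E16.5 (1.27 to 1.38) and 2.13 at E18.5 (2.01 to 2.26).

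The E18.5 log2 ratio of *Fbln5* was 1.09 as deposited, 0.80 centred and 1.06 detrended, and *Fbln5* was the only one of the 10 that was still at least 2-fold apart in that last setting. Its transcript has 46.9% GC, in the fourth of the 10 bins, where the median log2 ratio of all genes was 0.16. The other coding transcript in the annotation has 48.4%.

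*Efemp2* and *Fbln2* were lowest in the E18.5 wild type library. *Efemp2* (chromosome 19, 5474690 to 5481854) had 49.1 FPKM in wild type and 57.9 in mutant UGS at E16.5, and 27.2 and 54.5 at E18.5. *Fbln2* (chromosome 6, 91162758 to 91222534) had 28.4 and 34.5 FPKM at the earlier stage and 19.4 and 35.2 FPKM at the later. For both genes the mutant libraries were above the wild type libraries, and the mutant values at the 2 stages lay close together. The E16.5 ratio was 1.18 for *Efemp2* (1.14 to 1.22) and 1.21 for *Fbln2* (1.18 to 1.25). At E18.5 it was 2.01 for *Efemp2* (1.91 to 2.11), an interval that spans 2-fold, and 1.81 for *Fbln2* (1.74 to 1.90). The E18.5 log2 ratio of *Efemp2* was 1.00 as deposited, 0.72 centred and 0.46 detrended, and that of *Fbln2* was 0.86, 0.57 and 0.33.

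*Fbln1* (chromosome 15, 85036438 to 85116724) was the most abundant fibulin of the 10 genes. It had 80.9 FPKM in wild type and 93.7 in mutant UGS at E16.5, and 78.5 and 89.5 at E18.5. The ratio was nearly the same at both stages, 1.16 at E16.5 (1.13 to 1.18) and 1.14 at E18.5 (1.11 to 1.17). The sign of the E18.5 log2 ratio depended on scaling, at 0.19 as deposited, -0.10 centred and -0.32 detrended. The ratio of *Fbln5* to *Fbln1* within a library was 0.153 in wild type (0.148 to 0.158) and 0.175 in mutant UGS (0.170 to 0.181) at E16.5. At E18.5 it was 0.118 (0.111 to 0.124) and 0.220 (0.213 to 0.227). *Fbln1* has the higher GC content of the pair at 54.7%.

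The lysyl oxidases, the enzymes that start the cross-linking of elastin and collagen, differed from each other. *Lox* (chromosome 18, 52676892 to 52689362) had 102 FPKM in wild type and 92.3 in mutant UGS at E16.5, and 99.7 and 114 at E18.5. *Loxl1* (chromosome 9, 58135530 to 58161019), which is linked to the renewal of elastic fibres, had 25.8 and 28.9 FPKM at the earlier stage and 13.8 and 32.7 FPKM at the later. *Lox* varied by a factor of 1.23 over the libraries and *Loxl1* by 2.36, the most of the 10 genes, with its E18.5 wild type value apart from the other 3. The E16.5 ratio was 0.91 for *Lox* (0.89 to 0.92) and 1.12 for *Loxl1* (1.08 to 1.16). At E18.5 it was 1.14 for *Lox* (1.12 to 1.16) and 2.36 for *Loxl1* (2.22 to 2.51).

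The *Loxl1* transcript has 61.0% GC and that of *Lox* 43.9%, the highest and the lowest of the 10. The E18.5 log2 ratio of *Loxl1* was 1.24 as deposited, 0.95 centred and 0.41 detrended, and that of *Lox* was 0.19, -0.10 and 0.18. The ratio of *Loxl1* to *Lox* within a library was 0.25 in wild type and 0.31 in mutant UGS at E16.5, and 0.14 and 0.29 at E18.5.

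**Figure D2:**
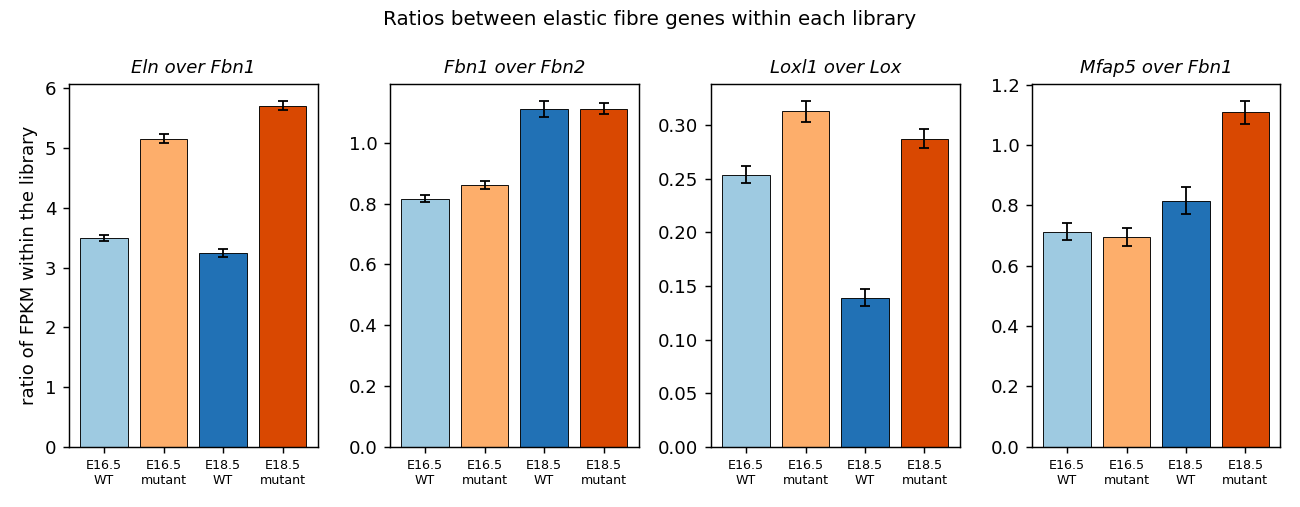
FPKM ratios between pairs of elastic fibre genes within each of the 4 libraries, with counting intervals of 95% as error bars and no replicates. The ratio of *Eln* to *Fbn1* is higher in the mutant at both stages (3.50 and 5.16 at E16.5, 3.24 and 5.71 at E18.5), while that of *Fbn1* to *Fbn2* changes with stage and not with genotype at E18.5. *Eln* has 58.8% GC and *Fbn1* 52.3%, in bins where the all-gene median E18.5 log2 ratio was 0.82 and 0.45. The ratio of *Eln* to *Fbn1* can thus move with GC content, and their detrended E18.5 log2 ratios were 0.25 and 0.05.

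Over the whole set, none of the 10 genes was 1.5-fold apart between the genotypes at E16.5. Of all 14761 genes 1.44% were at least 1.5-fold higher and 2.72% at least 1.5-fold lower in the mutant. 6 genes were higher and 4 lower, and 54.2% of all genes were higher. At E18.5 all 10 genes were higher in the mutant as deposited, against 69.5% of all genes. *Efemp2*, *Fbln5* and *Loxl1* were at least 2-fold higher, against 15.1% of all genes, and none was 2-fold lower, against 2.89%. With *Eln* and *Fbln2*, 5 genes were at least 1.5-fold higher, against 33.2% of all genes, and none 1.5-fold lower, against 7.6%. Centred, 6 of the 10 were higher, against 51.3% of all genes, and none was 2-fold apart, against 8.19% of all genes 2-fold higher and 5.42% 2-fold lower. Detrended, 9 were higher, against 51.0%, and *Fbln5* alone was 2-fold higher, against 3.51%, with none 2-fold lower, against 5.27%. The 5 genes past 1.5-fold had 46.9% to 61.0% GC and the other 5 had 43.9% to 54.7%.

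The genotype comparisons at the 2 stages share no library. On the centred scale *Eln*, *Fbln2*, *Fbln5*, *Efemp2* and *Loxl1* were higher in the mutant at both stages, and *Fbn1*, *Fbn2* and *Lox* were lower at both. *Fbln1* was higher at E16.5 and lower at E18.5, and *Mfap5* the reverse. Detrended at both stages, *Fbn1* was higher at both (0.03 and 0.05), while *Lox* (-0.13 and 0.18) and *Fbn2* (-0.05 and 0.01) changed sign. The E18.5 value of *Fbn2* was smaller than its counting error. The 5 genes higher at both stages when centred were also higher at both when detrended. Spearman's rho between the stages across the 10 genes was 0.66 and Pearson's r 0.70, and rho was 0.58 with detrended E18.5 values. Genes of a library are not independent replicates, and transcript GC content had a rho of 0.55 with the E16.5 and 0.45 with the E18.5 values across the same 10 genes. Neither the share of all genes alike in direction at both stages nor a rho over all genes is given here. The agreement is thus not a result about the set.

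**Figure D3:**
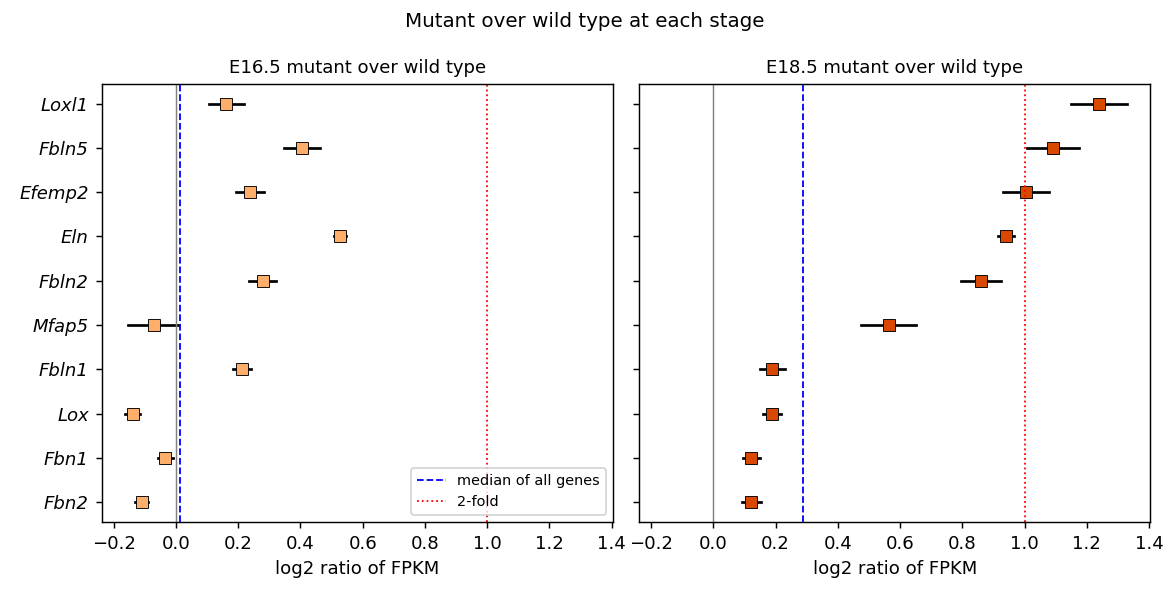
Log2 ratio of mutant to wild type FPKM for the 10 elastic fibre genes at E16.5 (left) and E18.5 (right), with counting intervals as black bars, the median of all genes as a dashed line and 2-fold as a dotted line. At E16.5 *Eln* at 0.53 and *Fbln5* at 0.41 lie farthest right, and at E18.5 the genes run from 0.12 for *Fbn2* to 1.24 for *Loxl1* around an all-gene median of 0.29.

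**Figure D4:**
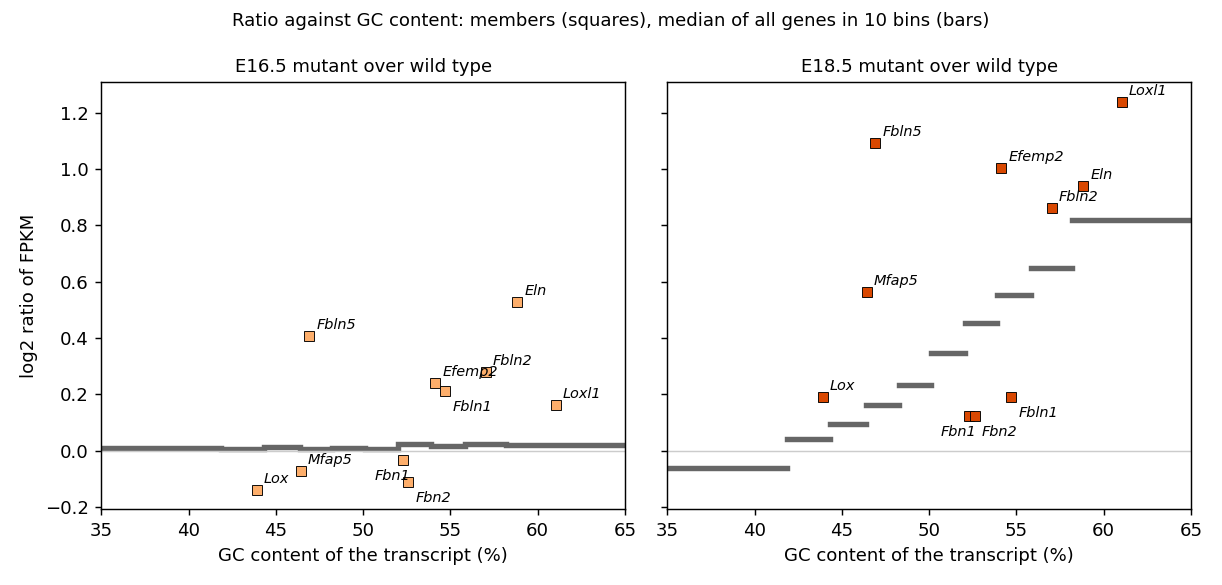
Log2 ratio of mutant to wild type FPKM against transcript GC content in percent for the 10 elastic fibre genes (squares), with the median of all genes in 10 GC bins as grey bars, the outer bins drawn only to 35 and 65%. The bars are flat at E16.5 and climb from -0.06 to 0.82 at E18.5, where *Fbln5* lies 0.93 above its bin and *Fbln1* 0.36 below (a difference of -0.36).

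From E16.5 to E18.5 the wild type and mutant libraries differed in direction for several genes. These comparisons reuse the same 4 libraries and are not independent of those between genotypes. In wild type UGS 8 of the 10 genes were lower at E18.5 and 2 higher, where 27.7% of all genes were higher. *Loxl1* (1.86-fold) and *Efemp2* (1.81-fold) were the 2 that were at least 1.5-fold lower, against 35.9% of all genes. None was 2-fold lower, against 16.8%, and none 1.5-fold higher, against 6.8%. Centred, 5 were higher and 5 lower. In mutant UGS 7 genes were higher at E18.5, against 35.3% of all genes. *Mfap5* was the only one at least 1.5-fold higher, at 1.79-fold (1.69 to 1.88), against 3.0% of all genes, and none was 1.5-fold lower, against 1.68%. *Eln* had a ratio of E18.5 to E16.5 of 0.93 in wild type and 1.24 in mutant UGS, *Lox* of 0.98 and 1.23, and *Fbln5* of 0.75 and 1.20.

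By the FPKM pattern over the 4 libraries, taken as the distance between log2 values centred on each gene's mean, *Eln* and *Fbln5* were each other's nearest member (distance 0.23), as were *Fbn1* and *Lox* (0.10) and *Efemp2* and *Loxl1* (0.21). Among 10112 genes with a mean of at least 5 FPKM, the 3 nearest to *Eln* were *Tyrobp* (0.13), *Ctsk* (0.15) and *Hebp1* (0.15). *Tyrobp* encodes a signalling adaptor of myeloid cells and *Ctsk* a cysteine protease that can degrade collagen and elastin. *Ctsk* had 12.9 FPKM in wild type and 16.8 in mutant UGS at E16.5, and 10.9 and 23.2 at E18.5. The gene nearest to *Fbln5* was *Htra1*, a secreted serine protease, at 0.13, with 10.1, 13.0, 7.64 and 17.7 FPKM in the same order. For the other 8 members the nearest genes, at distances of 0.0074 to 0.068, were *Mras* (*Fbn1*), *Kri1* (*Fbn2*), *1810058I24Rik* (*Fbln1*), *Tmed3* (*Fbln2*), *D5Ertd579e* (*Efemp2*), *Lcorl* (*Lox*), *Dpm3* (*Loxl1*) and *Gm5526* (*Mfap5*). With 4 libraries such a distance describes these values alone.

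The wider set of 37 other genes of elastic fibres and microfibrils held latent TGF-beta binding proteins, emilins, further microfibril-associated proteins, ADAMTS proteases, proteoglycans, integrins and the remaining lysyl oxidases. 35 passed 1 FPKM in either library of each comparison. At E16.5 none was 2-fold apart, and 22 were higher and 13 lower, where 54.2% of all genes were higher. The median log2 ratio was 0.05, against 0.19 for the 10 elastic fibre genes and 0.01 for all genes. At E18.5 7 were at least 2-fold higher and none 2-fold lower, with a median of 0.36, against 0.71 for the 10 genes and 0.30 for all genes. The shares of all genes 2-fold higher and lower were 15.1% and 2.89%. Centred, 4 of the 35 were 2-fold higher and 2 were 2-fold lower, against 8.19% and 5.42% of all genes, and the median was 0.07, or 0.02 detrended.

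*Emilin1*, a microfibril-bound glycoprotein of the elastin interface, had 66.1 FPKM in wild type and 71.5 in mutant UGS at E16.5, and 20.3 and 64.2 at E18.5. The E18.5 wild type value was alone, as for *Loxl1*, and the E18.5 log2 ratio was 1.66 as deposited, 1.37 centred and 0.87 detrended. *Adamts10*, a protease that binds fibrillin-1, had 17.3 and 20.8 FPKM at the earlier stage and 7.11 and 20.7 FPKM at the later, with E18.5 log2 ratios of 1.54, 1.25 and 0.88 on the same scales. The most abundant of the 37 went the other way at E18.5. *Dcn*, a collagen-binding proteoglycan, had 527, 624, 967 and 722 FPKM in the order of libraries above, *Mfap4* 245, 274, 337 and 287, and *Bgn*, a proteoglycan related to decorin, 189, 224, 383 and 271. The E18.5 log2 ratios of these 3 genes were -0.42, -0.23 and -0.50 as deposited, -0.71, -0.52 and -0.79 centred, and -0.66, -0.87 and -0.99 detrended. *Dcn* is also counted among the fibroblast markers below.

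Markers of cells that make elastic fibres moved in their own ways. The 12 smooth muscle contractile markers summed to 1644 FPKM in wild type and 1009 in mutant UGS at E16.5, and to 2009 and 4651 at E18.5. All 12 were lower in the mutant at E16.5 (median log2 ratio -0.73), where 54.2% of all genes were higher. At E18.5 11 were higher (0.86, or 0.57 centred and 0.56 detrended), against 69.5% of all genes, and none was at 0. Of the 10 elastic fibre genes 6 were higher in the mutant at E16.5, near the 54.2% of all genes. The other 4, *Fbn1*, *Fbn2*, *Lox* and *Mfap5*, were lower. The 10 endothelial markers summed to 137 and 157 FPKM at E16.5 and 133 and 147 at E18.5. All 10 were higher in the mutant at E16.5 (0.21), against 54.2% of all genes, and 7 at E18.5, against 69.5%. Their E18.5 median was 0.46, or 0.17 centred and 0.36 detrended, and none was at 0. The 10 stromal fibroblast markers summed to 3648, 3893, 3888 and 4627 FPKM, with medians of 0.07 at E16.5 and 0.29 at E18.5. The fibroblast median at E18.5 was 0.00086 centred and -0.0091 detrended. The part of these cells in the elastic fibre values was not tested.

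The 10 interstitial collagen genes, 3 of which are also fibroblast markers, had a median log2 ratio of 0.04 at E16.5 and 0.41 at E18.5, where it was 0.12 both centred and detrended, with none 2-fold apart as deposited. Of 8 cartilage markers 4 passed 1 FPKM, with *Matn1* at 0 in 2 libraries, sums of 10.7 to 13.8 FPKM and medians of 0.19 and 0.41 (0.15 centred and 0.03 detrended at E18.5). The 8 skeletal muscle markers summed to 832, 347, 426 and 799 FPKM, with medians of -1.22 and -0.14 (-0.43 centred and -0.66 detrended at E18.5). The 12 epithelial markers summed to 701, 577, 724 and 875 FPKM, with medians of -0.39 and 0.07, and the E18.5 sign turned to -0.22 centred and -0.52 detrended. Of 6 adipocyte markers 4 passed, with *Adipoq* and *Plin1* each at 0 in at least 1 library, sums of 46.7, 34.4, 115 and 115 FPKM and medians of -0.19 and -0.13 (-0.42 centred and -0.44 detrended at E18.5).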

How the data were processed

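RNA-Seq libraries (KAPA stranded mRNA kit, single-end reads) were made from pooled RNA of 3 male embryos per genotype and stage. Per the labels and the study's methods, the authors trimmed reads with Trimmomatic 0.30, aligned them with TopHat 2.1.0 at default options and estimated expression with Cufflinks 2.2.1, and the deposited values are FPKM in 1 column per library. The genome build is not given in the sources used here.

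Ratios were computed from FPKM without a pseudocount for genes reaching 1 FPKM in one or both libraries, and list medians from log2(FPKM + 0.1), a scale that understates the change of low genes. Centred and detrended medians of the wider, collagen and marker lists used no pseudocount. The medians of the 10 members recomputed under each alternative setting kept a pseudocount. With 1 library per group no test was run. Depth was estimated from the line of inverse FPKM on length through olfactory receptor genes of 1 exon that held a single read, 15 to 27 in each library. Reads per gene were estimated from this depth and the transcript length, and exact binomial intervals of 95% for ratios from these reads. Length and GC content came from the longest coding transcript of GENCODE M21 and were found for 10 of 10 members. A lowess trend (span 0.3) on length and then GC was subtracted as one alternative, and further settings were equal library sums, centring on the median, upper quartile scaling (75th percentile), no filter, 5 FPKM in either library, 1 FPKM in both libraries, pseudocounts of 0.01 and 1, and 1.5-fold in place of 2-fold. Steps were tested on simulated data.

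The members and lists were chosen with earlier results of these data known. All 10 members are named, and from the wider list of 37 genes those 2-fold apart between genotypes with at least 10 FPKM in the higher library and the 3 of highest mean. For likeness the rule took the 3 nearest genes for *Eln* and the nearest for each other member. *LOC100502873* and the genes in the last part were chosen after their values were seen. The list of defining markers of the tissue is reported here only in part. Scripts ran in Python 3.11.15 with statsmodels 0.14.6, scipy 1.17.1, pandas 2.3.3, matplotlib 3.10.9 and numpy 2.4.6.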

Additional observations from a re-analysis of the deposited data

Results flagged for a closer look

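6 genes differed between genotypes or stages in opposite directions, each past its counting interval. The share of all genes with such opposite directions is not given here, so this count is not a result about the set. Of all genes 54.2% were higher in the mutant at E16.5 and 69.5% at E18.5. From E16.5 to E18.5 27.7% of all genes were higher in wild type and 35.3% in mutant UGS. With 1 library per group the differences were not tested. *Fbn1*, *Fbn2* and *Lox* were lower in the mutant at E16.5 and higher at E18.5 as deposited, with log2 ratios at E18.5 that exceeded those at E16.5 by 0.16, 0.23 and 0.33. Centred on the all-gene median, these 3 were lower in the mutant at both stages. With the length and GC trend subtracted *Lox* (-0.13 at E16.5 and 0.18 at E18.5) and *Fbn2* (-0.05 and 0.01) kept opposite directions, and *Fbn1* (0.03 and 0.05) was higher at both. For *Fbn2* the E18.5 value of 0.01 is smaller than its counting error, so its direction there is not settled.

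*Eln*, *Fbln5* and *Loxl1* were lower at E18.5 than at E16.5 in wild type and higher in mutant UGS, with log2 ratios that differed by 0.41, 0.69 and 1.08 between the genotypes. Centred in this way, the wild type log2 ratio of *Eln* was 0.23, in the same direction as in the mutant. With the length and GC trend subtracted that of *Loxl1* was 0.07, again in the direction of the mutant. The opposite directions of *Fbln5* held in all 4 scaling settings, with wild type values from -0.09 (centred), about the size of its counting error, to -0.32 (trend subtracted), beside 0.32 in the mutant in both.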

How the results depend on the processing

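No paired analysis was possible because the labels number no replicates, and with 1 library per group none could be left out. A fit of genotype over both stages, which leaves 1 residual degree of freedom, was not run. Of the counts and medians recomputed under each alternative, 50 stayed within their limit, 14 moved past it and 4 changed sign. The limit was 1.5 times for a count and the typical counting error of a single log2 ratio for a median. At E18.5 the 3 genes past 2-fold became 0 with sums made equal, with centring and with upper quartile scaling, 1 with the length and GC trend subtracted, and 5 at 1.5-fold. The E18.5 median log2 ratio of 0.71 became 0.29 with sums equal, 0.42 with centring, 0.45 with upper quartile scaling and 0.25 with the trend subtracted. At E16.5 the median of 0.19 became 0.081 with sums equal. The wild type stage median of -0.26 changed sign under the scalings, to 0.031 with sums equal, 0.072 with centring, 0.034 with upper quartile scaling and 0.086 with the trend subtracted, and 2 genes passed 1.5-fold where 0 passed 2-fold. The mutant stage median of 0.17 became 0.23 with centring and 0.29 with the trend subtracted, and 1 gene passed 1.5-fold. The cause of these shifts was not tested. Filters and pseudocounts moved no count or median past these limits. The estimated reads behind a value were at least 1240.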

Other observations

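*Itgb3*, the beta subunit of an integrin that binds fibrillin and fibulin-5, had 3.03 FPKM in wild type and 1.65 in mutant UGS at E16.5, and 3.39 and 9.96 at E18.5, so that its E18.5 mutant value was alone. Its E18.5 log2 ratio was 1.55 as deposited, 1.26 centred on the all-gene median and 1.30 with the length and GC trend subtracted, and its E16.5 log2 ratio was -0.88. *Efemp1*, a fibulin that is not among the 10 genes, had 59.9, 60.3, 89.1 and 51.4 FPKM in the same order of libraries, highest in E18.5 wild type. Its E18.5 log2 ratio was -0.79 (-1.08 centred and -1.04 detrended). *Mfap2*, a fibrillin-binding glycoprotein related to *Mfap5*, had 189, 228, 240.1 and 196 FPKM, with an E18.5 log2 ratio of -0.29 (-0.58 centred and -1.23 detrended) where that of *Mfap5* was 0.56. *Ltbp2* had 2.56, 2.76, 1.27 and 3.63 FPKM, lowest in E18.5 wild type. *Mmp12*, macrophage elastase, was at or near 0 in every library, at most 0.01 FPKM.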
